A study of Mus musculus with 8 samples.

Results

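The genes described are 9 genes of red blood cells and of heme synthesis, measured in mouse mammary tumors treated with calcipotriol or with its solvent. They are 4 adult globin genes (Hba-a1, Hba-a2, Hbb-bs and Hbb-bt), the 2 genes for the first enzyme of heme synthesis (Alas2 and Alas1), the gene for the last enzyme (Fech), the anion exchanger of the red cell membrane (Slc4a1) and bisphosphoglycerate mutase (Bpgm). They were chosen by symbol from 55414 gene identifiers in the deposited table, of which 14458, these 9 included, had enough counts to be tested. The choice was made with the calcipotriol against EtOH fold changes of these same tumors known, so their differences between the groups are given as a description, without p-values. The symbol list has no threshold, so there are no members just inside or just outside one.

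The tumors came from a cell line, PyMt, that was derived from a mammary tumor of a transgenic C57BL/6 mouse in which the mouse mammary tumor virus promoter drives the polyoma middle T oncogene. The cells were placed in the mammary fat pad of wild-type (WT) female C57BL/6 mice, and topical doses of 20 nmol calcipotriol, a vitamin D analog, in ethanol (calcipotriol, 4 tumors, labelled replicates 1, 5, 6 and 7) or of ethanol alone (EtOH, 4 tumors, labelled replicates 1 to 4) were applied over the tumors. Dosing was every 2 days from day 2 after implantation, and RNA was taken from the tumors 24 hours after the last dose. The comparison asks what topical calcipotriol changes in the RNA of these tumors. Both groups share the cell line, the host strain and the ethanol. The paper reports significantly smaller tumors after calcipotriol than after EtOH in this model, and the part of tumor size in the values here was not tested. Recipient mice in this tumor model were 6 to 8 weeks old, with no separate age given for the 8 sequenced tumors, and the methods describe injected cells that carry a nonsense control guide RNA without saying whether these tumors were among them. All tumors come from 1 implanted cell line, and each sample holds tumor cells together with host stroma, vessels and blood.

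Red blood cells of the adult mouse carry hemoglobin, a tetramer of 2 α-globin and 2 β-globin chains, each holding 1 heme. Heme is built in 8 enzymatic steps that begin and end in the mitochondrion. The erythroid-specific synthase ALAS2 opens the pathway in maturing red cells, its housekeeping relative ALAS1 does so in other cells, and ferrochelatase (Fech) inserts the iron. Reticulocytes, the young red cells in blood, have lost their nucleus but still hold globin and Alas2 mRNA, so any perfused tissue carries some of this RNA. Of the 9 genes, the 4 globins, Alas2 and Slc4a1 are largely restricted to erythroid cells, whereas Bpgm, Fech and Alas1 are also used in other cell types.

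The libraries held 19685423 to 25084740 estimated counts, with 20908424 to 25084740 in the EtOH group and 19685423 to 24673448 in the calcipotriol group. At this depth 3 counts correspond to 0.119 to 0.146 CPM, the count scaled to a common library size after TMM (trimmed mean of M values) correction for composition. This floor covers counting error only. Of the defining genes of the labelled epithelial cells, Krt8 lay between 285 and 652 CPM and Krt18 between 259.7 and 665 CPM in the 8 tumors, while Epcam lay between 0 and 22.7 CPM. The nuclear factors of erythroid precursors were near 0, with at most 5 counts for Gata1, 28 for Klf1 and 0 for Gfi1b in any tumor. Rhag had 10 counts in 1 calcipotriol tumor and 0 in the other 7, and Epb42 had 3 counts in 1 EtOH tumor and 0 in the other 7. The erythroid label therefore rests here on the globins and Alas2, which were abundant, and on low counts of Slc4a1.

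The globin genes come in near-identical pairs, which matters for reading their separate values. Hba-a1 (ENSMUSG00000069919, chr11:32283511-32284465, plus strand) and Hba-a2 (ENSMUSG00000069917, chr11:32296489-32297298, plus strand) have coding sequences of 429 bases that differ at 1 base, C381T, counted from 1 at the A of the start codon with the Hba-a1 base first. Hbb-bs (ENSMUSG00000052305, chr7:103826534-103828096, minus strand) and Hbb-bt (ENSMUSG00000073940, chr7:103812524-103813996, minus strand) have coding sequences of 444 bases that also differ at 1 base, C417T, with the Hbb-bs base first. Gene positions and coding sequences are those of the GENCODE M21 annotation of build GRCm38. The upstream windows printed further below are from RefSeq on GRCm38.p6. The stretch around the differing base, which is in capitals, is printed for each gene because it is the only coding place where a read can tell the copies apart.
Hba-a1, coding bases 351 to 411: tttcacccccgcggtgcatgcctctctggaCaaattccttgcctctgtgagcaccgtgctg
Hba-a2, coding bases 351 to 411: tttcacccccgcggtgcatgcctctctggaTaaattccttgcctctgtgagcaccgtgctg
Hbb-bs, coding bases 387 to 444: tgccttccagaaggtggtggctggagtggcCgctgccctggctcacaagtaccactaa
Hbb-bt, coding bases 387 to 444: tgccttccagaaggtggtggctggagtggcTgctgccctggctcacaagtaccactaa
The longest stretch that the transcripts of a pair share without a difference was 415 bases for the α pair and 430 bases for the β pair. Estimated counts that were not whole numbers, as arise when a read is divided between genes, were deposited in 8 of 8 tumors for each of the 4 globins and for Alas2, and in 0 of 8 for the other 4 genes. The split within a pair is thus partly an estimate, and the summed values are given beside the single ones.

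The windows of 250 bases upstream of the RefSeq start sites were searched for short words, as the choice of members did not use sequence. Slc4a1 and Fech were not among the genes searched. The capitals mark GATA words (AGATAA or TGATAA or AGATAG or TGATAG) and the words CACCC and CCAAT on either strand, and the marked words do not overlap one another. GATA words are bound by GATA1, CACCC by KLF1 and CCAAT by NF-Y, as background, and a word in a window is only a match of letters. Windows are shown for 1 gene of the near-identical α pair, for both β genes, for Alas2 and, as a gene that is not restricted to red cells, for Bpgm.
Hba-a1, chr11:32283422-32283671, plus strand: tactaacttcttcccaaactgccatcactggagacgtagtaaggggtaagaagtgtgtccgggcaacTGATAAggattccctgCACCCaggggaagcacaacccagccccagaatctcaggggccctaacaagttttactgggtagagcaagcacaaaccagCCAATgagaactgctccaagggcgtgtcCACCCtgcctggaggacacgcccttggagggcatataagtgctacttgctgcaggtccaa
Hbb-bs, chr7:103827929-103828178, minus strand: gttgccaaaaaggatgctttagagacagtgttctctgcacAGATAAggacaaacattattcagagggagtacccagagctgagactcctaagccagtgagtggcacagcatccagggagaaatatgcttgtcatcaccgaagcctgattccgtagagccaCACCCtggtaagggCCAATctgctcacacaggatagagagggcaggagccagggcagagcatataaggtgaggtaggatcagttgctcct
Hbb-bt, chr7:103813924-103814173, minus strand: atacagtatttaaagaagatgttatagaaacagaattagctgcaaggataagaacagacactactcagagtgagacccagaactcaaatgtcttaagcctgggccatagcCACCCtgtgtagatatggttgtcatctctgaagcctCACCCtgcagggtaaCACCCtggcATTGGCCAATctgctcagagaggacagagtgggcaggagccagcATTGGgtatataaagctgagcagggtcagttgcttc
Alas2, chrX:150547167-150547416, plus strand: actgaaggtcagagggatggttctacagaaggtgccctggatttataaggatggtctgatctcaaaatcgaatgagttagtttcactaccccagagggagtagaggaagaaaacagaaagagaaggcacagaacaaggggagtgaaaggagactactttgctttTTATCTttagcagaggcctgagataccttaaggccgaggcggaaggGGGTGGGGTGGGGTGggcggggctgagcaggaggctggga
Bpgm, chr6:34476106-34476355, plus strand: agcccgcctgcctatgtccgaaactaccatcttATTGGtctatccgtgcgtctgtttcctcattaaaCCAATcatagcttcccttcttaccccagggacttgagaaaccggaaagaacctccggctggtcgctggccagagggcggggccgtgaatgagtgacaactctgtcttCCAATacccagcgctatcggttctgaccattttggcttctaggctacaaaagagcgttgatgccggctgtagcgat
The windows of Hba-a1 and Hba-a2 were identical over a run of 247 bases and each held 1 GATA word, 2 CACCC and 1 CCAAT. The Hbb-bs window held 1 of each, with the GATA word 210 to 205 bases before the start. The Hbb-bt window, 69.3% identical to that of Hbb-bs in a gapped alignment, held 3 CACCC and 3 CCAAT but 0 of the 4 GATA words. In Alas2 the window held 1 GATA word on the minus strand, 86 to 81 bases before the start, and 3 CACCC in a row. The Bpgm window held 3 CCAAT, 0 GATA words and 0 CACCC, and each of 2 windows of Alas1 held 1 CACCC alone. Among 32851 promoter windows of the same length, 26.5% held a GATA word, 52% a CACCC, 33.8% a CCAAT and 3.92% all 3 kinds.

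All 4 adult globin genes were lower in calcipotriol tumors than in EtOH tumors, by a factor of 6.66 to 8.15 between the group means. The α-globin gene Hba-a1 stood at 1279.7, 1291, 850.1 and 839 CPM in EtOH replicates 1 to 4 and at 206, 127, 139 and 136 CPM in calcipotriol replicates 1, 5, 6 and 7. Its EtOH values split into a higher pair, replicates 1 and 2, and a lower pair, replicates 3 and 4, and every calcipotriol tumor lay below the lower pair. The mean was 1065 ± 255 CPM (SD, n = 4) in EtOH and 152 ± 36.3 CPM (SD, n = 4) in calcipotriol, a log2 fold change of -2.81 (SE 0.23).

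Its copy Hba-a2 stood at 1343, 1649, 884 and 801 CPM in the EtOH tumors and at 211, 104, 133 and 127 CPM in the calcipotriol tumors, in the same replicate order. The groups did not overlap, and the lowest EtOH tumor was 3.8 times the highest calcipotriol tumor. The log2 fold change was -3.03 (SE 0.30), from 1169 ± 399 to 143 ± 46.5 CPM (SD, n = 4 each).

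The adult β-globin gene Hbb-bs was the most abundant of the 9, at 2559.9, 2524, 1475 and 1484 CPM in EtOH and 327, 166, 286 and 226 CPM in calcipotriol tumors. EtOH replicates 1 and 2 were again above replicates 3 and 4, and calcipotriol replicate 5 was again the lowest of all. Its log2 fold change was -3.0 (SE 0.28), from 2011 ± 614 to 251 ± 70.2 CPM (SD, n = 4 each).

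The second adult β-globin gene, Hbb-bt, stood at 357, 314, 268 and 289 CPM in EtOH and 69.3, 33.1, 44.7 and 37.3 CPM in calcipotriol tumors. Its EtOH tumors lay closer together than those of the other globins, with a coefficient of variation of 12.3% against 23.9% to 34.1%. In the calcipotriol tumors its coefficient was the highest of the globins, 35.2% against 23.9% to 32.4%. Hbb-bt had a log2 fold change of -2.74 (SE 0.23), from 307 ± 37.9 to 46.1 ± 16.2 CPM (SD, n = 4 each). Summed over the copies, α-globin went from 2234 ± 646 to 295 ± 82.7 CPM and β-globin from 2318 ± 647 to 297 ± 85.0 CPM (SD, n = 4 each). In bulk RNA, fewer cells of a type and less RNA per cell cannot be told apart, and this applies to every value here.

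The erythroid heme synthase Alas2 (ENSMUSG00000025270, chrX:150547375-150570638, plus strand) showed a difference of the same size as the globins. It stood at 55.7, 54.7, 31.7 and 41.4 CPM in EtOH and at 7.43, 4.48, 6.01 and 6.15 CPM in calcipotriol tumors. The lowest EtOH tumor, replicate 3, was 4.26 times the highest calcipotriol tumor, replicate 1. Between the group means the log2 fold change was -2.93 (SE 0.23), from 45.9 ± 11.5 to 6.02 ± 1.21 CPM (SD, n = 4 each).

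Slc4a1 (ENSMUSG00000006574, chr11:102348824-102366203, minus strand), which encodes band 3, the chloride and bicarbonate exchanger of the red cell membrane, was far less abundant. Its counts were 63, 54, 30 and 54 in the EtOH tumors and 15, 3, 5 and 0 in the calcipotriol tumors. These correspond to 3.06, 2.63, 1.22 and 2.38 CPM in EtOH and 0.596, 0.137, 0.240 and 0 CPM in calcipotriol. The groups did not overlap, but 2 of the calcipotriol tumors were at or under 3 counts, and the gene was kept for testing only through its EtOH counts. The log2 fold change of -3.21 had the largest error of the 9 (SE 0.91), and it became -4.17 when calcipotriol replicate 1 was left out.

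**Figure D1:**
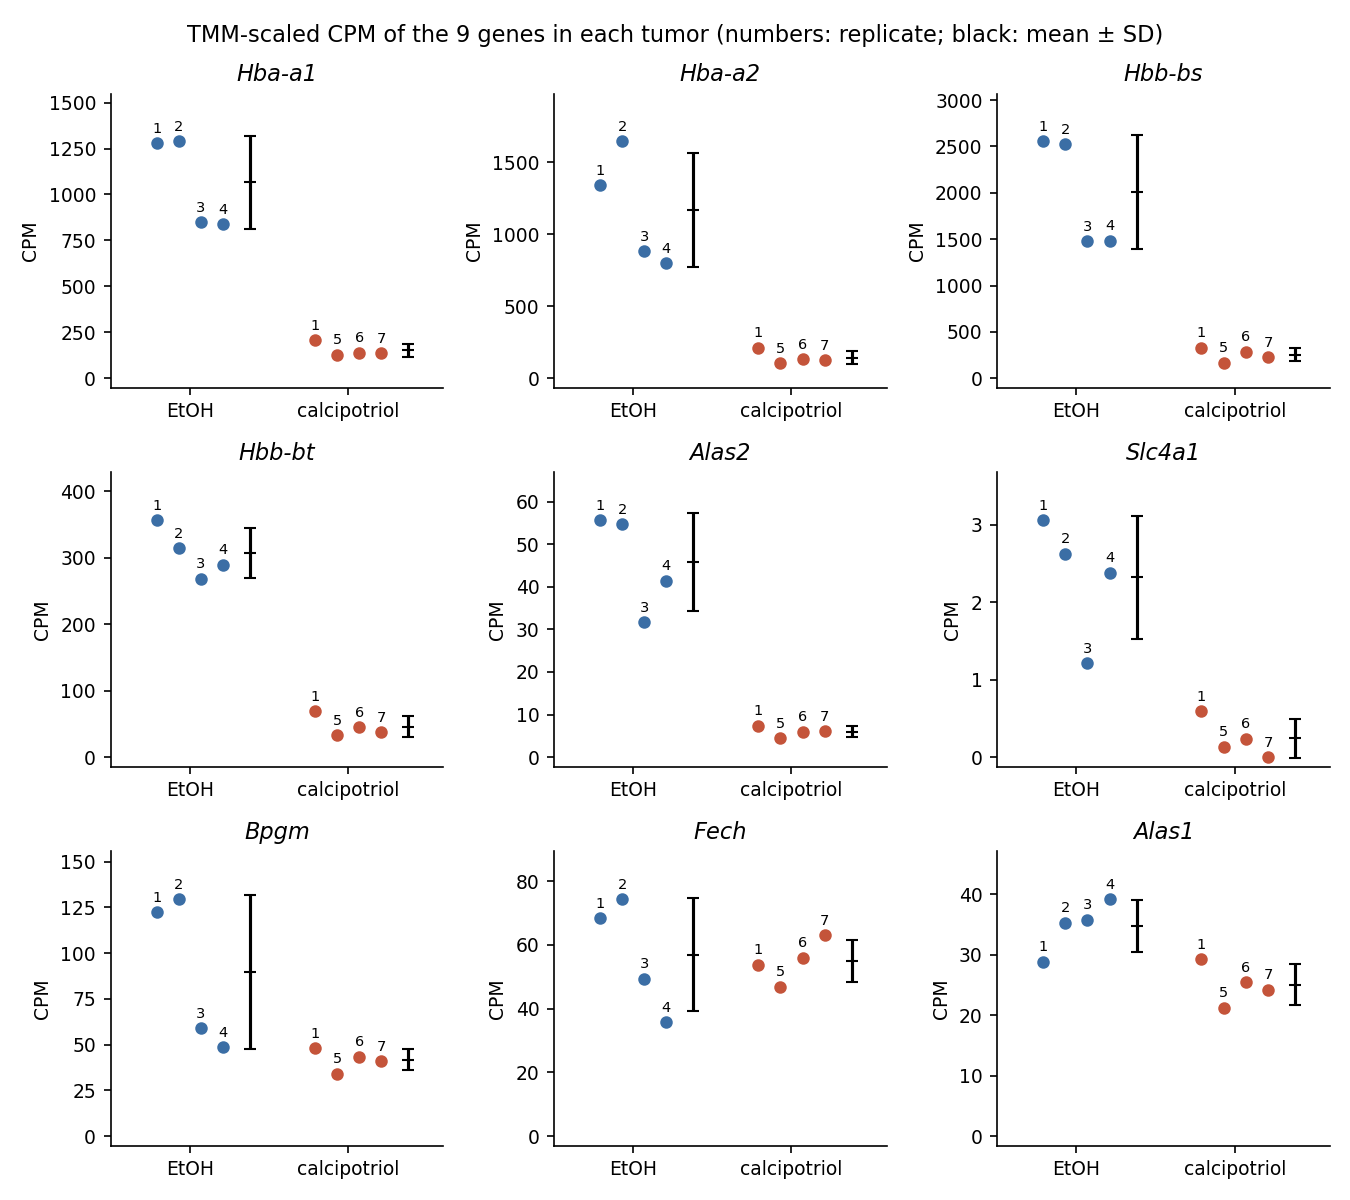
TMM-scaled CPM (vertical axes, each starting near 0 with its own range) of the 9 genes in the 4 EtOH tumors (blue) and 4 calcipotriol tumors (red); each dot is 1 tumor with its replicate number, and the black bar is the group mean ± SD. The 4 globins, Alas2 and Slc4a1 are separated between the groups, Bpgm only narrowly, and Fech and Alas1 overlap.

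The genes with wider use differed less. Bpgm (ENSMUSG00000038871, chr6:34476207-34505613, plus strand), whose product makes the 2,3-bisphosphoglycerate that lowers the oxygen affinity of hemoglobin, stood at 122, 129.6, 59.0 and 48.5 CPM in EtOH tumors and at 48.0, 34.2, 43.5 and 41.0 CPM in calcipotriol tumors. EtOH replicates 1 and 2 were far above the rest, and EtOH replicate 4 was only 1.01 times calcipotriol replicate 1. Bpgm had a log2 fold change of -1.11 (SE 0.30), from 89.9 ± 42.0 to 41.7 ± 5.75 CPM (SD, n = 4 each).

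Ferrochelatase, Fech (ENSMUSG00000024588, chr18:64452914-64490251, minus strand), stood at 68.3, 74.4, 49.5 and 35.7 CPM in EtOH and at 53.8, 47.0, 56.0 and 63.1 CPM in calcipotriol tumors. The calcipotriol tumors lay inside the range of the EtOH tumors, whose replicates 1 and 2 were again the higher pair. Its log2 fold change of -0.05 (SE 0.21) was smaller than its error, with means of 57.0 ± 17.7 and 55.0 ± 6.64 CPM (SD, n = 4 each).

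The housekeeping synthase Alas1 (ENSMUSG00000032786, chr9:106233455-106248654, minus strand) stood at 28.9, 35.3, 35.8 and 39.3 CPM in EtOH and at 29.3, 21.3, 25.5 and 24.2 CPM in calcipotriol tumors. The groups overlapped only where EtOH replicate 1, the lowest of its group, met calcipotriol replicate 1, the highest of its group. Alas1 had a log2 fold change of -0.47 (SE 0.15), from 34.8 ± 4.32 to 25.08 ± 3.33 CPM (SD, n = 4 each). Unlike the other members, Alas1 was not higher in EtOH replicates 1 and 2 than in replicates 3 and 4.

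With a call defined as an adjusted p below 0.05 together with a log2 fold change of 1 or more in either direction, 5 of the 9 genes were called lower in calcipotriol tumors, namely the 4 globins and Alas2, against 0.948% of all genes tested. DESeq2 also called Slc4a1 and Bpgm, and limma-voom called the same 5 as edgeR. Every calcipotriol tumor lay below every EtOH tumor for 7 of the 9, all but Fech and Alas1, against 6.16% of genes tested, and 0 of the 9 were above in every calcipotriol tumor, against 6.32%. These counts describe the choice of the genes, which used the same contrast, and nothing is read from them. The median log2 fold change was -2.96 over the 6 erythroid-restricted genes and -0.47 over Bpgm, Fech and Alas1, beside 0.02 over all genes tested. The 6 restricted genes spanned -3.21 to -2.74 on this scale, a range narrower than the standard error of Slc4a1 alone.

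Levels between genes were compared as mean CPM per kilobase of annotated exon. In EtOH tumors Hbb-bs led at 2618 CPM per kb, followed by Hba-a2 at 1753 and Hba-a1 at 1312, and the ranges of these neighbours overlapped. Hbb-bt followed at 437 CPM per kb, below the range of Hba-a1. Bpgm (25.0) and Alas2 (19.1) overlapped each other, as did Alas1 (5.64) and Fech (4.12), and Slc4a1 was lowest at 0.475 CPM per kb.

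In calcipotriol tumors the order of the globins was the same, at 327, 215, 187 and 65.6 CPM per kb for Hbb-bs, Hba-a2, Hba-a1 and Hbb-bt. Alas2 changed its place: at 2.503 CPM per kb it lay below Bpgm (11.6), Alas1 (4.06) and Fech (3.97), and its range was below that of Fech. Slc4a1 remained lowest at 0.0498 CPM per kb.

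The proportions among the erythroid-restricted genes were then computed within each tumor. The ratio of α- to β-globin was 0.899, 1.04, 0.994 and 0.925 in EtOH replicates 1 to 4 and 1.05, 1.15, 0.823 and 0.999 in calcipotriol replicates 1, 5, 6 and 7. The 2 groups overlapped and their means, 0.964 ± 0.063 and 1.01 ± 0.138 (SD, n = 4 each), were closer than the spread between tumors. Globin RNA of both chains was therefore lower by about the same factor, 7.56 for α and 7.79 for β.

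The share of the second copy in each pair also overlapped between the groups. Hba-a2 made up 48.8% to 56.1% of α-globin CPM in EtOH and 45.0% to 50.6% in calcipotriol tumors. Hbb-bt made up 11.1% to 16.3% of β-globin CPM in EtOH and 13.5% to 17.5% in calcipotriol tumors.

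Alas2 kept its proportion to globin across all 8 tumors. There were 10.1, 9.47, 9.11 and 12.1 Alas2 counts per 1000 globin counts in the EtOH tumors and 9.14, 10.4, 9.97 and 11.7 in the calcipotriol tumors. The means of 10.2 ± 1.35 and 10.3 ± 1.07 (SD, n = 4 each) differed by less than the spread within either group. Slc4a1 had 0.349 to 0.698 counts per 1000 globin counts in EtOH and 0 to 0.733 in calcipotriol tumors, with the wider range in the group with few counts.

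Proportions between a restricted and a widely used gene differed. Alas2 made up 65.8%, 60.8%, 46.9% and 51.3% of the CPM of both synthases in EtOH and 20.2%, 17.4%, 19.1% and 20.3% in calcipotriol tumors. The groups were far apart, and the 4 calcipotriol tumors lay within 3 percentage points of each other. The summed CPM of Alas1 and Alas2 went from 80.7 ± 9.61 to 31.1 ± 4.52 (SD, n = 4 each). The ratio of Hbb-bs to Bpgm, 24.003 ± 4.99 in EtOH and 5.94 ± 0.916 in calcipotriol tumors (SD, n = 4 each), did not overlap between the groups either.

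**Figure D2:**
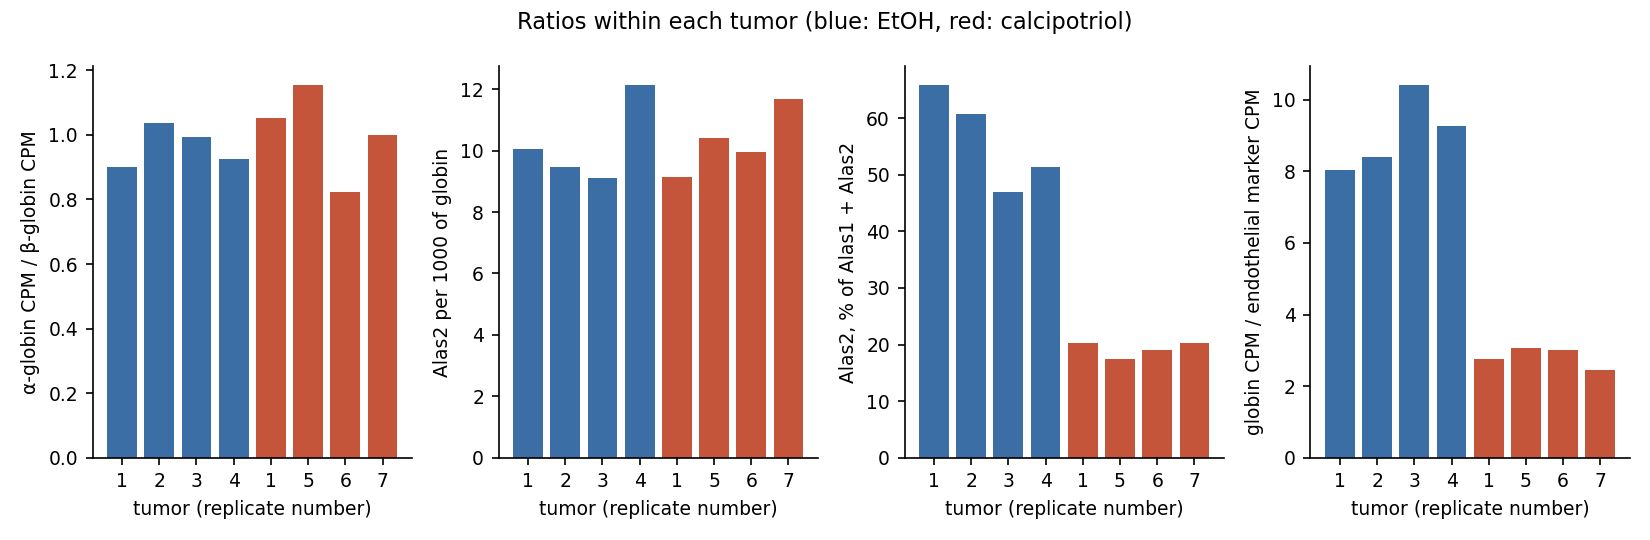
Ratios within each of the 4 EtOH tumors (blue) and 4 calcipotriol tumors (red), 1 bar per tumor named by replicate number, all axes from 0; from left to right, α- over β-globin CPM, Alas2 counts per 1000 globin counts, Alas2 as a percentage of Alas1 plus Alas2 CPM, and globin CPM over the summed CPM of the endothelial markers. The first 2 ratios overlap between the groups, and the last 2 are lower in every calcipotriol tumor.

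Within each group the restricted genes tended to be high or low in the same tumors. EtOH replicates 1 and 2 were above their group mean of log2 CPM for 6 of 6 restricted genes, EtOH replicate 3 for 0 of 6 and EtOH replicate 4 for 1 of 6. Calcipotriol replicate 1 was above its group mean for 6 of 6 and replicate 5 for 0 of 6. Calcipotriol replicate 1 was the highest tumor of its group for every member but Fech, and replicate 5 the lowest for every member but Slc4a1. These are 8 tumors that share libraries across the genes, so the common pattern is a description of the tumors. The globins took 0.334% to 0.545% of all counts in EtOH tumors and 0.042% to 0.083% in calcipotriol tumors.

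Between the first and last steps of heme synthesis, 5 enzymes are given here, and 0 of them were called. By edgeR's quasi-likelihood test with Benjamini-Hochberg adjustment over all genes tested, Alad, the second enzyme, had a log2 fold change of -0.25 (SE 0.22, adjusted p = 0.584). Uros (0.07), Urod (-0.09) and Cpox (-0.13) lay within 1 standard error of 0, with adjusted p between 0.765 and 0.907. Ppox, the seventh enzyme, was at 20.6 ± 2.77 CPM in EtOH and 31.4 ± 7.95 CPM in calcipotriol tumors (SD, n = 4 each), with a log2 fold change of 0.61 (SE 0.20, adjusted p = 0.132).

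Of the 15 genes tested for heme synthesis and its transport, the members set aside, 0 passed both thresholds in the edgeR fit, 11 were above 0 and 4 below, and the median was 0.07. At an unadjusted p under 0.05 3 passed (Ppox, Slc25a37 and Abcb10), and 0 were called by DESeq2 or limma-voom. At an adjusted p alone, which 2.74% of all genes tested passed, 1 of them did: Slc25a37, mitoferrin 1, which carries iron into the mitochondria of erythroid and other cells, rose from 75.7 ± 12.1 to 126 ± 15.4 CPM (SD, n = 4 each; log2 fold change 0.74, SE 0.15, adjusted p = 0.031). It was higher in every calcipotriol tumor, opposite in sign to Alas2, with which it acts in red cells. Its neighbour in the inner mitochondrial membrane, Abcb10, stood at 11.1 ± 1.42 and 14.5 ± 0.637 CPM (adjusted p = 0.267).

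**Figure D3:**
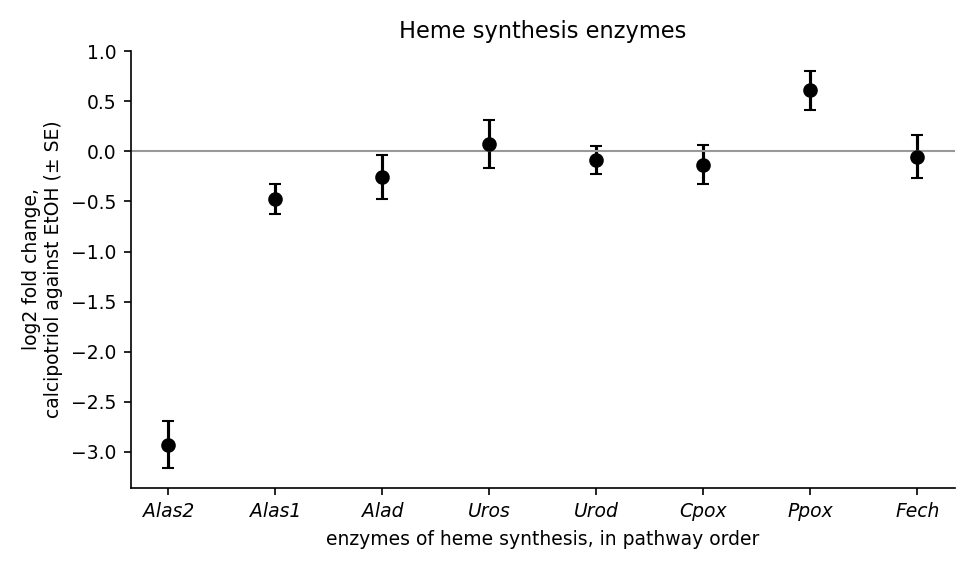
Log2 fold change, calcipotriol against EtOH (vertical axis), of 8 heme synthesis genes in pathway order, from the first step (Alas2 and Alas1) to the last (Fech); points are the edgeR estimates over 4 against 4 tumors and bars their standard error. Alas2 stands alone near -2.93 while the plotted enzymes from Alad to Fech lie between -0.25 and 0.61.

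Around the members, further genes of red cells, heme and iron were listed by function, with 113 of them in the table and 86 with enough counts to be tested. Past both thresholds 3 were lower and 2 higher, 5.81% of those tested, beside 2.02% of all genes, and the median log2 fold change was 0.01 with 45 genes above 0 and 41 below. The lower genes included Tent5c and Trf, and the higher ones were Hmox1 and Cd163.

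Among 16 tested genes of red cell enzymes and reticulocyte maturation, 2 fell and 0 rose past both thresholds, and the median was -0.11. Tent5c, also called Fam46c, a poly(A) polymerase that lengthens the tails of mRNAs, stood at 19.5, 19.9, 11.7 and 13.8 CPM in EtOH and 4.57, 2.47, 2.60 and 2.59 CPM in calcipotriol tumors. The order of the tumors resembled that of the globins, with EtOH replicates 1 and 2 and calcipotriol replicate 1 high. Its log2 fold change was -2.40 (SE 0.29, edgeR adjusted p = 0.00396). Among the 14 tested genes of this list that did not pass was Prdx2, the abundant red cell peroxiredoxin, at 345 ± 22.5 and 319 ± 27.5 CPM (SD, n = 4 each; log2 fold change -0.12, adjusted p = 0.662). Car1, Pklr, Trim58 and Hemgn were at or under 3 counts in every tumor.

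Of 13 tested genes of the red cell membrane and its skeleton, 0 passed both thresholds, 8 were above 0 and 5 below, and the median was 0.12. At an unadjusted p under 0.05 3 passed, Epb41 and Cd47 among them, and DESeq2 called 1 and limma-voom 0. Epb41, a skeletal protein that many cell types use, was lower in every calcipotriol tumor, at 35.4 ± 6.24 and 21.1 ± 4.02 CPM (SD, n = 4 each; log2 fold change -0.75, adjusted p = 0.064). Kel, Icam4, Epb42 and Cldn13 were at or under 3 counts in every tumor.

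The remaining globins were scarce. The embryonic and minor genes Hba-x, Hbb-y, Hbb-bh1, Hbb-bh2 and Hbq1a never exceeded 3 counts per tumor, and of 10 globin family genes in the table that are not members, only Cygb and Adgb could be tested. Cygb, cytoglobin, which fibroblasts and other cells express, stood at 21.6 ± 5.09 and 20.96 ± 8.26 CPM (SD, n = 4 each; log2 fold change -0.04, adjusted p = 0.961). Adgb, androglobin, was at 2.42 ± 0.819 and 0.752 ± 0.301 CPM (log2 fold change -1.68, adjusted p = 0.131), and it was called by DESeq2 but not by limma-voom. At an unadjusted p under 0.05 it was the 1 gene of this pair that passed.

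Of the regulators of red cell formation, 10 were tested and 0 passed both thresholds, with a median of -0.24, 8 genes below 0 and 2 above. At an unadjusted p under 0.05 5 passed, and DESeq2 called 2 (Tal1 and Kit) and limma-voom 0. Gata1, Klf1, Gfi1b, Bcl11a and Epor, the erythropoietin receptor, had too few counts to be tested. Epor had 34, 23, 26 and 0 counts in EtOH and 4, 0, 4 and 3 counts in calcipotriol tumors. Among those tested, the log2 fold change was -1.45 for Tal1 (adjusted p = 0.132), -0.92 for Zfpm1, the GATA cofactor FOG1 (0.070), -1.63 for the stem cell factor receptor Kit (0.097) and -1.21 for Cbfa2t3 (0.246). It was -0.31 for Lmo2 (0.603), -0.17 for Nfe2 (0.914), -0.10 for Stat5b (0.773), -0.07 for Stat5a (0.886), 0.18 for Ldb1 (0.639) and 0.61 for the erythropoietin receptor kinase Jak2 (0.082). Tal1, Lmo2, Kit and Zfpm1 are also used outside the erythroid lineage, in vessels, mast cells or other blood cells.

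Of 30 tested genes for heme breakdown and iron handling, 2 rose and 1 fell past both thresholds, with a median of 0.12. Hmox1, heme oxygenase 1, which opens the heme ring and frees its iron, stood at 51.3, 52.7, 106 and 118 CPM in EtOH and 159.9, 262, 223 and 217 CPM in calcipotriol tumors. Every calcipotriol tumor was higher than every EtOH tumor, and the tumors with the most globin RNA, EtOH replicates 1 and 2 and calcipotriol replicate 1, were the lowest of their groups. Hmox1 had a log2 fold change of 1.39 (SE 0.29, edgeR adjusted p = 0.033).

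Cd163, the macrophage receptor for hemoglobin bound to haptoglobin, stood at 20.8, 21.6, 40.3 and 39.4 CPM in EtOH and 51.7, 136, 123 and 137 CPM in calcipotriol tumors. The same tumors were low in each group as for Hmox1. For Cd163 the log2 fold change was 1.87 (SE 0.33, edgeR adjusted p = 0.019).

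Trf, transferrin, the carrier of iron in plasma, stood at 218, 256, 329 and 326 CPM in EtOH and 156, 93.6, 56.0 and 68.6 CPM in calcipotriol tumors. Calcipotriol replicate 1 was the tumor closest to the EtOH group. For Trf the log2 fold change was -1.59 (SE 0.30, edgeR adjusted p = 0.023). The calls of Hmox1, Cd163 and Trf were lost when single tumors were left out: Hmox1 without EtOH replicate 1, 2 or 3 or calcipotriol replicate 5, 6 or 7 (highest adjusted p = 0.092), Cd163 without EtOH replicate 1 or 2 or calcipotriol replicate 5, 6 or 7 (0.063) and Trf without EtOH replicate 2 or 3 or calcipotriol replicate 5, 6 or 7 (0.076). Tent5c was called in 15 of 15 alternative fits.

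The iron importers Slc11a2 and Slc39a14 rose by less than the fold threshold, with log2 fold changes of 0.76 (adjusted p = 0.026) and 0.79 (adjusted p = 0.029). Receptors and stores did not pass: the transferrin receptor Tfrc stood at 40.4 ± 10.7 and 50.4 ± 12.4 CPM (log2 fold change 0.32, adjusted p = 0.498), the ferritin chain Fth1 at 2559 ± 239.9 and 3129 ± 1001 CPM (0.29, 0.514), and the iron exporter Slc40a1 at 1.49 ± 0.738 and 1.27 ± 0.651 CPM (-0.22, 0.885), all SD with n = 4 each.

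**Figure D4:**
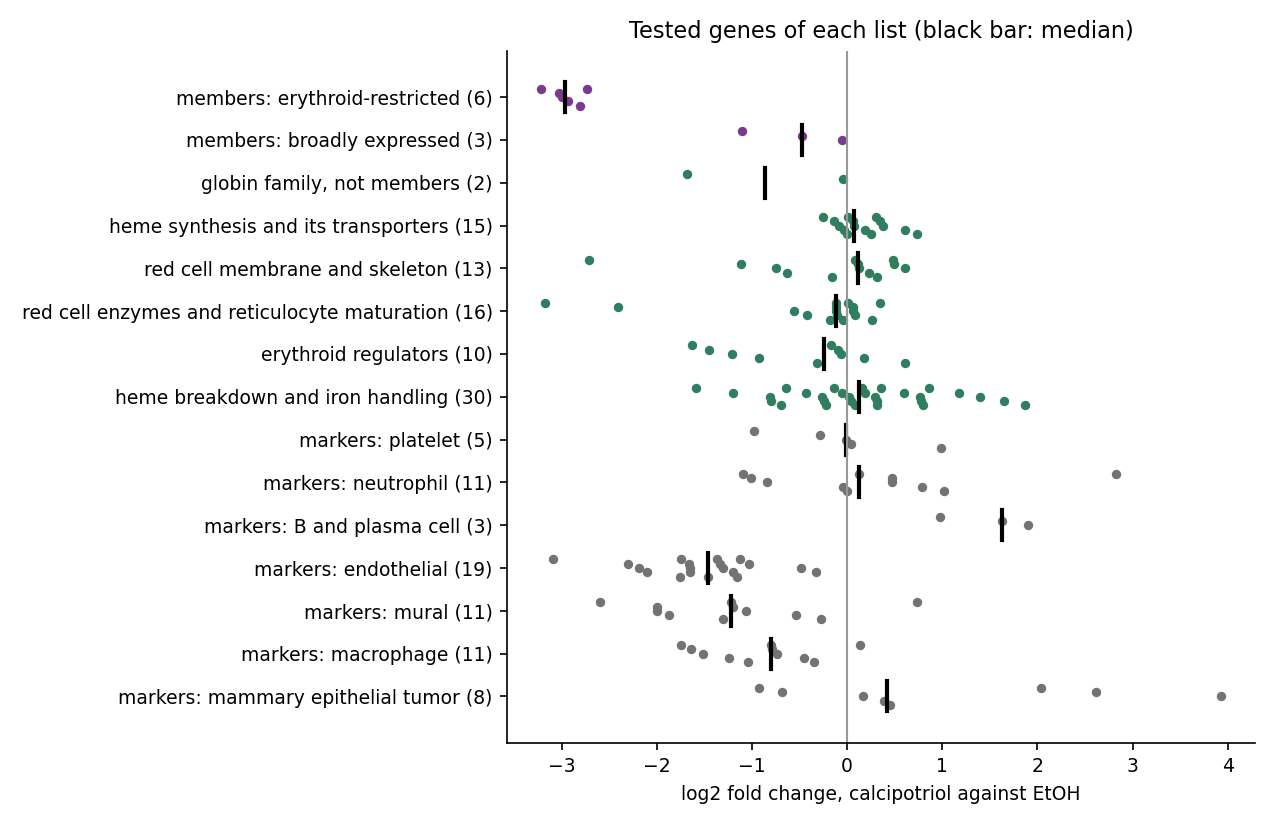
Log2 fold change, calcipotriol against EtOH (horizontal axis, edgeR estimates over 4 against 4 tumors), of each tested gene in the lists named at the left with the number of genes tested; purple dots are the 9 genes described, green dots the other red cell, heme and iron genes, grey dots markers of other cell types, and black bars list medians. The restricted members sit near -2.96, the 5 green list medians other than that of the 2 globin family genes lie between -0.24 and 0.12, and the endothelial markers have a median of -1.46.

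Markers of other cell types differed between the groups as well, in the same edgeR fit. Of 19 endothelial markers, 10 (16 by DESeq2 and 7 by limma-voom) fell and 0 rose past both thresholds (Pecam1, Kdr, Tie1, Esam, Robo4, Clec14a, Sox18, Vwf, Plvap and Mmrn2), 14 were lower in every calcipotriol tumor, and the median log2 fold change was -1.46. Their summed level was 334 to 689.9 CPM in EtOH and 141 to 294 CPM in calcipotriol tumors, and 0 of the 19 were at or under 3 counts throughout. Of 11 mural markers 2 fell (Rgs5 and Mcam; 5 by DESeq2) with a median of -1.22, and the summed level was 483 to 948 CPM in EtOH and 359 to 557 CPM in calcipotriol tumors. The part of these vessel genes in the globin difference was not tested.

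Set side by side tumor by tumor, globin and endothelial RNA were high in the same tumors of each group, EtOH replicates 1 and 2 and calcipotriol replicate 1, but the difference between the groups was not of the same size. The 4 globins summed to 5539, 5779, 3477 and 3413.5 CPM in EtOH and 813, 429.8, 603 and 526 CPM in calcipotriol tumors. The endothelial markers summed to 689.9, 689, 334 and 368 CPM in EtOH and 294, 141, 200.3 and 213 CPM in calcipotriol tumors. Globin was lower by a factor of 7.68 between the group means and the endothelial sum by a factor of 2.45. The sum is weighted by abundance, and single endothelial markers varied widely. Their log2 fold changes ran from -0.33 (SE 0.43) for Flt1 to -3.09 (SE 0.71) for Clec14a, which is as large as those of the globins.

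The ratio of globin to endothelial CPM was 8.03, 8.38, 10.4 and 9.27 in EtOH and 2.76, 3.06, 3.01 and 2.46 in calcipotriol tumors. The groups did not overlap, and the ratio of their means, 9.02 ± 1.06 against 2.82 ± 0.273 (SD, n = 4 each), was 3.20, or 3.17 without calcipotriol replicate 1. Alas2 behaved like the globins, with a ratio to the endothelial sum of 0.0919 ± 0.0154 in EtOH and 0.0290 ± 0.00277 in calcipotriol tumors (SD, n = 4 each). Bpgm did not. Its ratio was 0.177, 0.188, 0.177 and 0.132 in EtOH and 0.163, 0.243, 0.217 and 0.192 in calcipotriol tumors, which overlapped. The difference between the group means of the log2 ratio was 0.27 for Bpgm, 0.79 for Alas1 and 1.26 for Fech. The edgeR log2 fold changes of these genes, a different measure, were -1.11, -0.47 and -0.05. The endothelial sum itself differed by -1.26 in mean log2 CPM, which enters every such ratio.

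**Figure D5:**
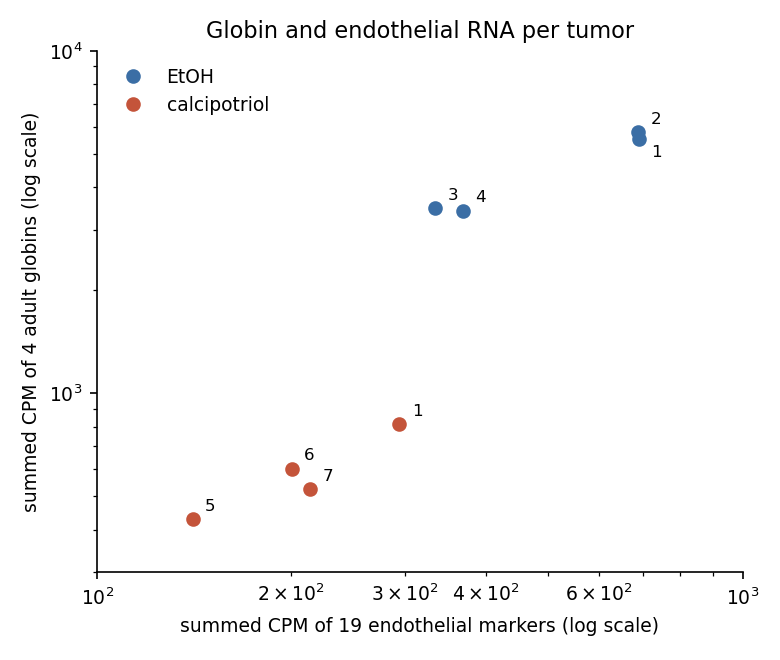
Summed CPM of the 4 adult globin genes (vertical log axis) against summed CPM of 19 endothelial markers (horizontal log axis) in the 4 EtOH tumors (blue) and 4 calcipotriol tumors (red), labelled by replicate number. Globin CPM per endothelial CPM is 8.03 to 10.4 in the EtOH tumors and 2.46 to 3.06 in the calcipotriol tumors.

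Platelets also travel in blood. Of 12 platelet markers 5 could be tested and 0 passed, the median log2 fold change was -0.01, and the summed level was 20.1 to 62.3 CPM in EtOH and 29.9 to 47.0 CPM in calcipotriol tumors, with Gp6 at or under 3 counts throughout. At an unadjusted p under 0.05 1 of the 5 passed, and 0 were called by DESeq2 or limma-voom. Pf4, at 9.44 to 56.3 CPM, can also be expressed by macrophages. Of 11 neutrophil markers 1 rose (Lcn2, which several cell types express) and 0 fell by edgeR, while DESeq2 also called Mmp9 (log2 fold change -1.10 by edgeR, lower in every calcipotriol tumor). Csf3r was also lower in every calcipotriol tumor (log2 fold change -1.01, edgeR adjusted p = 0.151) but was not called. The neutrophil median was 0.13, which was -0.50 without calcipotriol replicate 5, -0.09 and -0.19 without EtOH replicate 3 or 4 and 0.60 without EtOH replicate 2. Summed levels were 58.9 to 136 CPM in EtOH and 94.7 to 354 CPM in calcipotriol tumors. Lcn2 alone took a mean of 13.8 CPM of this sum in EtOH and 97.7 CPM in calcipotriol tumors.

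Of 11 macrophage markers 3 fell (Adgre1, Csf1r and Lyz2; 5 by DESeq2), with a median of -0.80 and summed levels of 3746 to 4679.6 CPM in EtOH and 1551 to 2842 CPM in calcipotriol tumors. Spic, the factor of the red pulp macrophages that recycle red cells, was at or under 3 counts in every tumor. The B and plasma cell markers had 3 tested genes, of which 0 were called by edgeR, DESeq2 or limma-voom and 1 had an unadjusted p under 0.05, and a median of 1.62, which was 0.07 without calcipotriol replicate 1, the tumor in which their summed level reached 67.3 CPM against at most 13.1 CPM in the other 7. The epithelial markers had 1 gene of 8 that rose past both thresholds (Cldn3) and 0 that fell. In every calcipotriol tumor 2 of the 8 were lower and 1 higher, against 6.16% and 6.32% of genes tested. Their median was 0.42 (0.14 to 0.89 without 1 tumor, -0.25 over genes with at least 10 counts in every tumor). Their summed level was lower in every calcipotriol tumor, at 1049 to 1346 CPM in EtOH and 626 to 930.0 CPM in calcipotriol tumors. The part of these cell types in the values of the 9 genes was not tested.

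No gene tested beside the globin clusters was called. Within 200 kb of the α cluster on chromosome 11 lie 12 annotated genes that are not members, of which 6 had enough counts and 0 passed both thresholds by edgeR, DESeq2 or limma-voom, nor did any have an unadjusted p under 0.05. Their log2 fold changes were 0.51 for Mpg, 0.27 for Nprl3, whose introns hold the α-globin enhancers, 0.07 for Snrnp25, -0.03 for Rhbdf1, -0.20 for Sh3pxd2b and -0.48 for Ubtd2, with adjusted p between 0.288 and 0.947. The bodies of Mpg and Nprl3 overlap, and reads there cannot be told apart without strand. Around the β cluster on chromosome 7, 38 annotated genes lie within 200 kb, of which 36 had 0 counts in every tumor and 0 could be tested.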

How the data were processed

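Tumor RNA from 4 EtOH and 4 calcipotriol mice, described as biological replicates, was sequenced by the authors. The table the authors deposited holds estimated counts (expected counts) per Ensembl gene, made from aligned reads with tools whose order and role are not stated. The submitters' processing notes name STAR 2.5.3, RSEM 1.3.1, DESeq2 1.24.0 and GRCm38, and the annotation is not given in the sources used here. An estimated count divides a read that fits several genes among them, which bears on the globin pairs.

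Counts were rounded, and 52081 of 55414 identifiers matched GENCODE M21 names. edgeR 4.0.16 (R 4.3.3) tested 14458 genes kept by filterByExpr with TMM scaling and the quasi-likelihood F test, calcipotriol against EtOH over all 8 tumors, with Benjamini-Hochberg adjustment (biological coefficient of variation 0.347). A call needed an adjusted p below 0.05 and a log2 fold change of 1 or more in either direction, thresholds that the methods state for limma. Standard errors are the fold change over the root of the F statistic, and log2 CPM used a prior of 2 counts. Alternatives were limma-voom (limma 3.58.1), the DESeq2 1.42.0 Wald test, other scalings and filters, ratios to endothelial markers and leaving out each tumor.

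The members, gene lists and markers were chosen with earlier results of these data known. Genes named are the 9 members, listed genes past both thresholds, the heme enzymes and erythroid regulators, tested genes within 200 kb of a globin cluster, and the 10 genes whose pattern is most like the restricted members; other listed genes are named as examples, chosen after their values were seen. Fam46c was matched as Tent5c, and Hbb-b1, Hbb-b2 and Ahsp were not analysed here. Some listed genes are not reported here, though they count in list totals. Lengths are unions of annotated exons.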

Additional observations from a re-analysis of the deposited data

Results flagged for a closer look

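The CPM of Hba-a1 in calcipotriol replicate 1 was 206, away from 127 to 139 in the other 3 calcipotriol tumors. The gap to the nearest of them was 0.842 of the whole range of the group. Of 56 groups of 4 values examined in this way, for members and ratios, this 1 was singled out, whereas chance would give about 2.8. Wide gaps in the sums over gene lists are not in this count. The B and plasma cell sum was 67.3 CPM in calcipotriol replicate 1 and 4.43 to 9.37 CPM in the other 3 calcipotriol tumors. The sum of the globin family genes that are not members was 10.6 CPM in calcipotriol replicate 5 and 25.8 to 27.4 CPM in the others. Calcipotriol replicate 1 was the highest of its group for every member but Fech.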

How the results depend on the processing

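With 4 tumors a group, and between 0 and 15 counts of Slc4a1 in calcipotriol tumors, the restricted genes are bounded by the spread between tumors and Slc4a1 by depth. The median log2 fold change of the 6 restricted genes was -3.10 to -2.82 when 1 tumor was left out and -2.96 to -2.87 under the other alternatives, and that of Bpgm, Fech and Alas1 was -0.56 to -0.40 without 1 tumor. As ratios to the endothelial markers the globins and Alas2 had log2 differences of -1.75 to -1.53, while those of Bpgm, Alas1 and Fech were 0.27, 0.79 and 1.26. These are differences between group means of log2 ratios, not edgeR fold changes. The number of genes past both thresholds, 292, was 458 with no filter on low counts, 640 by DESeq2 and 113 to 642 without 1 tumor, the highest without calcipotriol replicate 1. That of the listed non-member genes, 5, was 9 by DESeq2, 8 with no minimum fold and 2 to 9 without 1 tumor, again highest without calcipotriol replicate 1. Without 1 tumor the medians of the B and plasma cell markers (1.62 with all) were 0.067 to 1.95 of the macrophage markers -1.34 to -0.64, of the neutrophil markers -0.50 to 0.60 and of the epithelial markers 0.14 to 0.89. The epithelial median was 1.67 by limma-voom and -0.25 with at least 10 counts in every tumor, and the platelet median, -0.01, was 0.32 and 0.50 under the same settings. The cause of these shifts was not tested. No paired analysis was made, because the sources give no pairing of tumors between the groups and the replicate numbers are only labels.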

Other observations

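Apart from the members, a few genes had a pattern over the 8 tumors close to that of the restricted members. Each of 13341 genes averaging 20 counts or more per tumor was compared by Pearson's r of log2 CPM with the mean of the 6 standardised restricted members. The points are the same 8 libraries for every gene, most of the range comes from the difference between the groups, and r is a description with no p. The members outside the 6 had r of 0.832 (Alas1), 0.831 (Bpgm) and 0.117 (Fech). The closest other gene was Tent5c at 0.996, followed by Capn1 (0.992), Emid1 (0.990), Schip1 (0.988), Ptp4a3 (0.987), Celf2 (0.987), Papss1 (0.983), H1fx (0.983), Ppt1 (0.977) and Inka1 (0.976). Of these 10, Tent5c was the only one in the red cell lists.

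After each group was centred on its own mean, so that only differences among tumors of the same treatment count, Bpgm had r of 0.783, Fech 0.544 and Alas1 0.219. The closest genes were then Ece1 (0.981), Itgb5 (0.978), Vash1 (0.977), Mpzl1 (0.974), Vegfd (0.974), Lrpap1 (0.974), Evi5l (0.973), Gsn (0.973), Tmem189 (0.971) and Fmnl3 (0.971). None of these 10 was among the 10 genes closest over both groups, and none is in the red cell lists. With 4 tumors a group these values rest on few points.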
